A study of Mus musculus with 8 samples.

Results

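Krt2, Krt8 and Krt18 encode keratins, the subunits of the intermediate filaments of epithelial cells. They are 3 of the 45 keratin genes, and of 15995 gene symbols in all, listed in the RNA-seq table of newborn mouse epidermis analysed here. They were chosen by name as keratins near 0 in wild type and high in Zfp750 knockouts, so their own difference between the genotypes is a description and was not tested. The values go against that description for Krt18, which was at most 12.2 FPKM in the knockouts.

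The study compared 4 libraries of ZFP750-/- mice (KO1 to KO4) with 4 libraries of WT mice (WT1 to WT4), all newborn and of the C57BL/6J strain. The epidermis had been peeled after a cold overnight trypsin digest, and libraries were made from total RNA depleted of ribosomal RNA. Which part of the gene was removed, whether each library is 1 animal and from which body site the skin came are not given. The p-values therefore measure the spread between these libraries, which may in part be technical.

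A keratin filament is built from pairs of 1 type I and 1 type II keratin. Krt8 (type II) and Krt18 (type I) are the usual pair of simple, single-layered epithelia, and are also known from Merkel cells and the embryonic periderm. Krt2 (type II) belongs to the uppermost living layers of thick or specialised epidermis in the mouse, where it pairs with Krt10. Krt5 with Krt14 is the pair of basal keratinocytes, and Krt1 with Krt10 that of the layers above. Zfp750 is a zinc finger protein of differentiating keratinocytes.

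The genes sit on chromosome 15 (GRCm38, the same build as mm10) among the type II keratins, Krt18 as the only type I gene there. Krt2 (ENSMUSG00000064201.8) spans 101810689 to 101818169 on the minus strand and has 9 exons. Krt8 (ENSMUSG00000049382.10) spans 101996698 to 102004482 on the minus strand, also with 9 exons. Krt18 (ENSMUSG00000023043.7) spans 102028180 to 102032027 on the plus strand, with 7 exons, and its start lies 23.7 kb from that of Krt8. The 250 bases before each RefSeq start are shown because Krt2 and Krt8 reached like levels in the knockouts while the neighbour Krt18 did not. They are from RefSeq (GRCm38.p6), 5′ to 3′ on the gene's own strand, at chr15:101818170-101818419 (minus), chr15:102004343-102004592 (minus) and chr15:102027966-102028215 (plus). The RefSeq start equals the one above (GENCODE) for Krt2, but lies 140 bases inside the GENCODE gene for Krt8, at 102004342, and 36 bases inside it for Krt18, at 102028216. Part of either stretch therefore lies within the GENCODE gene. Capitals mark matches to TATAA or to GCCNNNGGC, the letters of an AP-2 site.
Krt2: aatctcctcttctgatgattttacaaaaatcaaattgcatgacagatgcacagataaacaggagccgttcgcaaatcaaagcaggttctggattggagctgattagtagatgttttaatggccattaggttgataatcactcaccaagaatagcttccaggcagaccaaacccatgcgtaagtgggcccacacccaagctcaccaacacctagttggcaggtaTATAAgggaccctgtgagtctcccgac
Krt8: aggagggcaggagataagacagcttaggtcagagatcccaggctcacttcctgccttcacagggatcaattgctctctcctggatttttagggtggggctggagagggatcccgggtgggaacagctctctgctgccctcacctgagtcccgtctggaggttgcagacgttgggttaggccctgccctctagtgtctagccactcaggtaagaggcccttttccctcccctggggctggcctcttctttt
Krt18: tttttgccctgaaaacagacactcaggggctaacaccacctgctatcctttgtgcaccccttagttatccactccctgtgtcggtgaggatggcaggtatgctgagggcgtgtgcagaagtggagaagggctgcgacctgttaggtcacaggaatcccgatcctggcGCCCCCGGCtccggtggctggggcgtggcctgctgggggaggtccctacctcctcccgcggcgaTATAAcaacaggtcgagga

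Motifs were searched on either strand in 300 bases, these 250 and the 50 after the RefSeq start, from which distances are counted. TATAA begins 27 bases before the start of Krt2 and 19 before that of Krt18, where it lies within the GENCODE gene. In Krt8 the matches begin 2 and 1 bases before the RefSeq start and run past it, within the GENCODE gene, so they are not in the stretch shown. Of 32841 promoter windows of this length, 24.9% hold TATAA. GCCNNNGGC is present in the Krt18 window, 83 bases before the start, and in 16.6% of all windows. CCNNAGGC, the letters known for human ZNF750, and the AP-1 letters (TGA, any base, TCA) were not found in the 3 windows, while 24.1% of all windows hold CCNNAGGC and 7.81% hold the AP-1 letters. CACCC, the core of KLF sites, has matches in all 3 and in 57.5% of all windows. None of these matches overlaps a match in capitals, and they describe letters, not bound factors.

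Values are FPKM, fragments scaled by transcript length and by the mapped fragments of the library, so levels can be compared between genes. The depth of the libraries is not given, and no counting error can be set beside a single low value. The summed FPKM was 483416 to 577300 per library, and 10637 to 11599 genes reached 1 FPKM. The targeted gene matched the labels, with Zfp750 at 1.53 to 2.68 FPKM in the knockouts and 81.6 to 119 FPKM in the wild types. The genotypes separated on the first principal component (49.8% of the variance), and KO4 stood apart on the second (23.9%). Titles carry a code of unknown meaning: 11 for KO1 and WT4, 14 for KO2 and WT3, and 44 for the other four. In tissue, fewer cells of a type and less RNA per cell cannot be told apart.

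Krt8 was abundant in all knockouts and scarce in all wild types. It had 403, 507, 562 and 732 FPKM across KO1 to KO4, against 1.48, 0.904, 2.40 and 2.07 FPKM across WT1 to WT4. The groups were far apart, the lowest knockout being 168 times the highest wild type, and KO4 was highest. The means were 551 ± 138 FPKM in knockouts and 1.71 ± 0.658 FPKM in wild types (SD, n = 4 each), a difference of 7.67 on the log2(FPKM + 1) scale. By level Krt8 was the 179th, 147th, 135th and 77th most abundant listed gene across KO1 to KO4, and between the 9966th and the 11052nd in the wild types.

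Krt2 reached a similar level with a wider spread. It had 285, 549, 756 and 903 FPKM across KO1 to KO4, against 0.201, 0.165, 0.0955 and 0.355 FPKM across WT1 to WT4. KO1 was lowest and KO4 highest, with 3.16-fold between them, against 1.82-fold for Krt8. The mean was 623 ± 268 FPKM in knockouts and 0.204 ± 0.110 FPKM in wild types (SD, n = 4 each), a log2 difference of 8.90. Among the 11395 genes that passed the filter on low values, Krt2 had the largest log2 difference and Krt8 came next. These ranks rest on the difference by which both were chosen, and Krt2 passed the filter only through the knockouts.

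Krt18 did not follow its partner. It had 6.26, 12.2, 2.06 and 1.48 FPKM across KO1 to KO4, against 0.379, 0.278, 0.562 and 0.382 FPKM across WT1 to WT4. The groups did not overlap, but the lowest knockout was 2.63 times the highest wild type, and the highest knockout was at 12.2 FPKM where Krt8 stood at 507 FPKM. The mean was 5.49 ± 4.93 FPKM in knockouts and 0.400 ± 0.118 FPKM in wild types (SD, n = 4 each), a log2 difference of 1.89. By level it ranked between the 5147th and the 10112th listed gene in the knockouts, and by log2 difference it was the 113th of 11395. The rank by log2 difference again rests on the values by which Krt18 was chosen. All 3 genes passed the filter (1 FPKM in at least 4 libraries) and each reached it in all 4 knockouts, so no count or median over them is given. Among all tested genes, 21.3% had groups that did not overlap, 8.78% with the knockouts higher. Leaving out Krt1 and Krt10, treated below, these 3 were the only keratins with a mean above 2 FPKM in knockouts and below 2 FPKM in wild types. This restates how they were chosen, and Krt8 itself stood at 2.40 and 2.07 FPKM in WT3 and WT4.

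**Figure D1:**
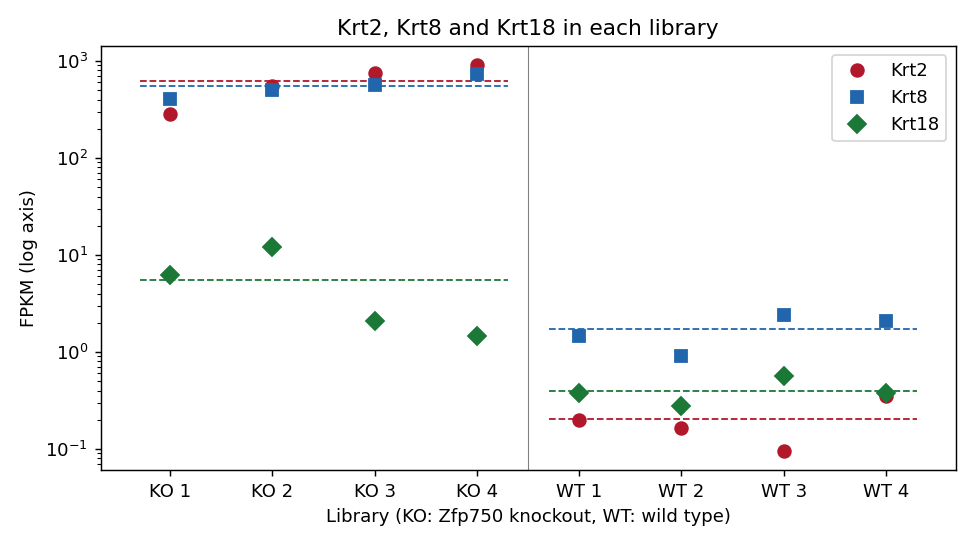
Level of Krt2, Krt8 and Krt18 in FPKM (log axis) in each of 4 knockout (KO) and 4 wild-type (WT) libraries; dashed lines are group means. Krt2 and Krt8 lie at 285 to 903 FPKM in knockouts, and Krt18 at 1.48 to 12.2 FPKM.

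The knockouts also differed among themselves, and Krt18 ran against the other genes. The knockouts with title code 44 (KO3 and KO4) averaged 647 FPKM of Krt8 and those with codes 11 and 14 (KO1 and KO2) 455 FPKM. For Krt2 the averages were 830 FPKM under code 44 and 417 FPKM under codes 11 and 14. For Krt18 the order was turned, with 1.77 FPKM under code 44 and 9.21 FPKM under codes 11 and 14. With 2 knockouts on each side these are values without a test. KO1 and KO2 also share the start of their titles and are the only libraries with Krt1 and Krt10 listed above 0. A further number in the library names, of unknown meaning, divides the knockouts in the same way. The code cannot be told apart from these. Within code 44 alone the log2 difference of Krt8 was 8.21, and within codes 11 and 14 alone it was 7.13.

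Partner stoichiometry was described by ratios of FPKM, which compare transcripts. The proteins that form the filament were not measured, and their ratio can differ. Krt8 exceeded Krt18 by 64.3, 41.7, 273 and 495 times across KO1 to KO4, against 3.90, 3.26, 4.27 and 5.40 times across WT1 to WT4. Thus Krt18 came to 0.202% to 2.40% of the Krt8 level in knockouts and to 18.5% to 30.7% in wild types. The wild-type ratios rest on low levels, with Krt18 at 0.278 to 0.562 FPKM and Krt8 at 0.904 to 2.40 FPKM, so they are uncertain. Each knockout lay above each wild type, and the knockouts spread 11.9-fold among themselves. The mean ratio was 218 ± 212 in knockouts and 4.21 ± 0.901 in wild types (SD, n = 4 each). It was 126 without KO4, and 53.0 for KO1 and KO2 alone.

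How steady a ratio is can be set against other genes. Over the 4 knockouts the log2 ratio of Krt18 to Krt8 had an SD of 1.69. Of 5778 genes with a knockout mean of at least 10 FPKM, 98.8% had a ratio to Krt8 that varied no more than that, and the median SD was 0.369. The ratio of Krt2 to Krt8, both type II, had an SD of 0.410, and 57.0% of 5777 genes varied no more. The Krt8 level over that of Krt2 was 1.41, 0.925, 0.743 and 0.811 across KO1 to KO4, against 7.34, 5.47, 25.1 and 5.81 across WT1 to WT4, where both levels are low. Krt18 itself, at 5.49 FPKM on average, lies below that 10 FPKM floor, so it is ranked among more abundant genes. Other pairs were set beside these. The ratio of Krt14 to Krt5 had an SD of 0.159 over the same knockouts, and 0.346% of 5777 genes held a ratio to Krt5 that varied no more. For Krt16 with Krt6b the SD was 0.814 and the share 48.5%, for Krt17 with Krt6b 0.547 and 8.71%, and for Krt16 with Krt6a 0.747 and 1.33%. These ranks describe 4 libraries that share their depth and make-up.

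**Figure D2:**
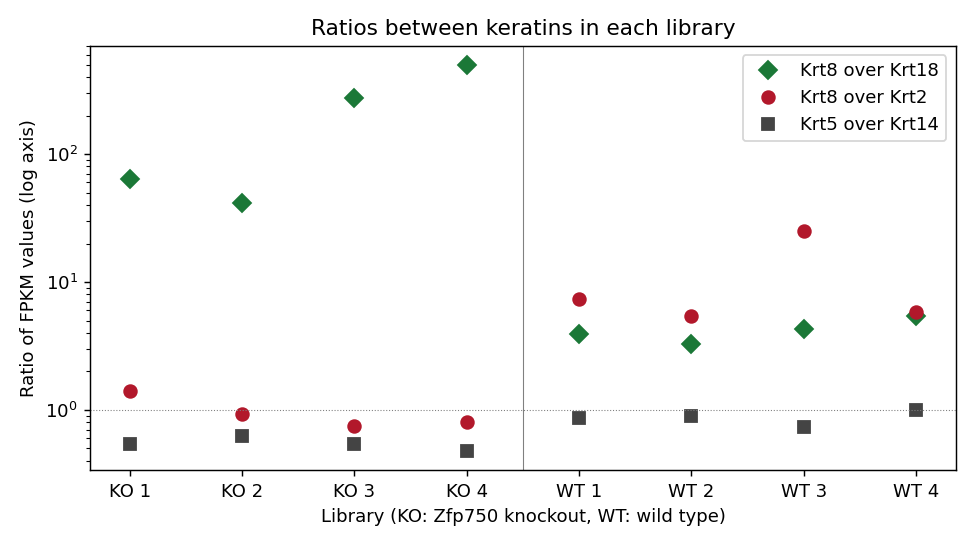
Ratio of FPKM values (log axis) of Krt8 to Krt18, Krt8 to Krt2 and, for comparison, Krt5 to Krt14 in each knockout (KO) and wild-type (WT) library. Krt8 to Krt18 lies at 41.7 to 495 in knockouts and at 3.26 to 5.40 in wild types, where both levels are low. Krt5 to Krt14 stays between 0.478 and 1.01 throughout.

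The type I keratins were then set beside Krt8 one at a time. Of the 9 type I keratins with a knockout mean of at least 1 FPKM and without Krt10, Krt32 of hair kept the steadiest ratio to Krt8 (SD of the log2 ratio 0.150), but at 1.32 FPKM on average. Next was Krt23, a type I keratin of unsettled role in skin, at 186 ± 16.8 FPKM in knockouts and 194 ± 15.4 FPKM in wild types (SD, n = 4 each). It stood at 0.436, 0.412, 0.306 and 0.256 times the Krt8 level across KO1 to KO4. Krt14, the most abundant, stood at 8.27, 4.34, 4.91 and 1.52 times the Krt8 level in the same order. Krt10, the known partner of Krt2, cannot be placed. It was listed at 11387 and 13519 FPKM in KO1 and KO2 and at 0 in the other 6 libraries, and Krt1 at 12094 and 13833 FPKM and at 0 in the same 6. Such zeros can be failed estimates, and no difference is drawn from them.

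With Krt1 and Krt10 left out, the 3 genes made up 8.37%, 16.1%, 18.1% and 37.2% of the summed keratin FPKM across KO1 to KO4, against 0.0548% to 0.0954% in the wild types. The share was highest in KO4, where Krt14 and Krt5 were lowest among the knockouts. With Krt1 and Krt10 counted as listed, the shares in KO1 and KO2 were 2.19% and 3.14%. The mean of all knockouts was then 15.2% ± 16.4, against 19.9% ± 12.3 without Krt1 and Krt10 (SD, n = 4 each). The first of these means joins KO1 and KO2, where Krt1 and Krt10 are high, with KO3 and KO4, where both are listed at 0. That mean and its SD therefore depend on those zeros and are not a measured share. Counted with Krt1 and Krt10, the mean was 7.80% without KO4. Nearly all of it was Krt2 and Krt8, since Krt18 took at most 0.183%.

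**Figure D3:**
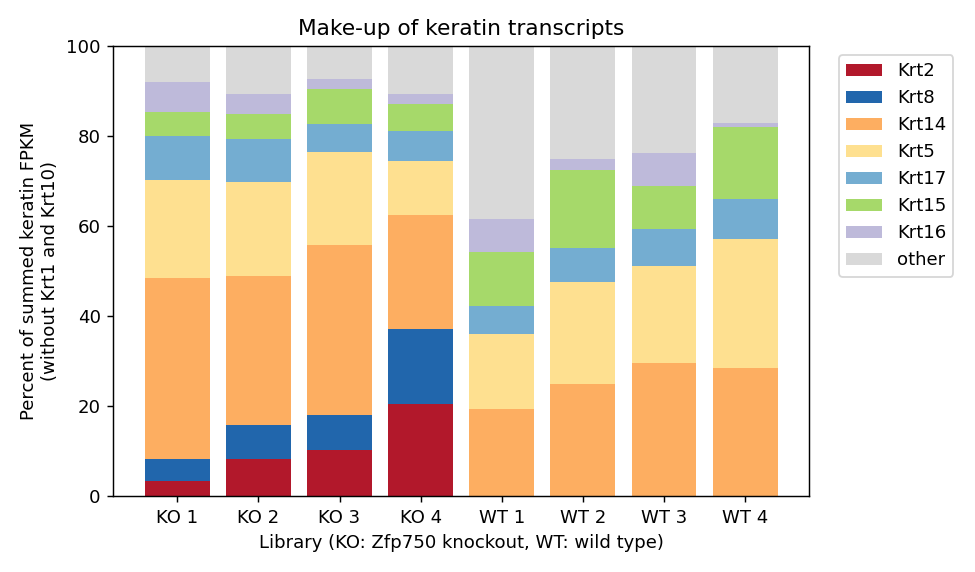
Share of the named keratins in the summed keratin FPKM of each knockout (KO) and wild-type (WT) library, without Krt1 and Krt10, in percent. Krt2 and Krt8 (red and blue) together take 8.37% to 37.2% with Krt18 in knockouts and are too small to see in wild types.

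The balance of the types was then compared without the chosen genes. Krt1 and Krt10 are left out too, so it covers only part of the keratins. For the type II keratins other than Krt1, Krt2 and Krt8, summed and divided by the sum of the type I keratins other than Krt10 and Krt18, the ratio was 0.430, 0.495, 0.452 and 0.413 across KO1 to KO4. Across WT1 to WT4 it was 0.737, 0.647, 0.634 and 0.690. The groups did not overlap, with 0.447 ± 0.0356 in knockouts and 0.677 ± 0.0466 in wild types (SD, n = 4 each; two-sided exact permutation p = 0.0286, the smallest that 70 assignments allow). Krt5 to Krt14 was lower as well, at 0.548 ± 0.0605 in knockouts and 0.875 ± 0.113 in wild types (SD, n = 4 each; exact permutation p = 0.0286). Krt5 and Krt14 (1304 and 2351 FPKM on average in knockouts) are the most abundant genes in these sums, so the second ratio largely repeats the first. Both p-values are 0.0286 after adjustment over these 2 tests. The tests were added after the values were seen, so they describe groups already seen not to overlap. With Krt2, Krt8 and Krt18 put back, type II over type I was 0.558, 0.775, 0.772 and 1.25 across KO1 to KO4, against 0.634 to 0.738 in wild types, and the groups overlapped. Windows of 75 bases, the read length, recur exactly in other genes for 7.77% of the Krt5 transcript, mostly in Krt6a, and for 5.91% of the Krt14 transcript, in Krt16. The sums cover 42 of the 43 keratins other than Krt1 and Krt10, since Krt85 could not be placed by the annotation.

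Among the other keratins, 19 were tested, and 2 rose, 5 fell and 12 did not pass (limma, Benjamini-Hochberg adjusted p under 0.05 over all 11395 genes). Of all tested genes 15.7% were called, 6.72% as higher and 8.94% as lower in the knockouts. The median log2 change of the 19 was -0.09, against 0.01 for all genes tested. Krt6b, a keratin of wounded epidermis, rose (log2 2.56 ± 0.55, SE; limma adjusted p = 0.0122), and so did Krt14 (1.46 ± 0.43; limma adjusted p = 0.0464). In both the groups overlapped. Krt6b had 36.2 FPKM in KO4 and 42.0 FPKM in WT3. Krt14 had 1112 FPKM in KO4, against 1215 FPKM in WT3 and 1253 FPKM in WT4. Krt6b passed in all 14 alternative fits, with a limma adjusted p of up to 0.0487. Krt12, known from the cornea, fell (-3.72 ± 0.23; limma adjusted p = 1.29e-05), and so did Krt78, Krt79, Krt80 and Krt32, by 2.12, 1.38, 1.05 and 0.56. Krt12 was under 1 FPKM in every knockout and passed the filter only through the wild types, so it could only be called as lower. The calls of Krt14 and Krt32 are fragile: Krt14 missed without KO1, KO2, KO3, WT1 or WT2 (limma adjusted p 0.0979 to 0.122), and Krt32 missed without any single library except KO4 (0.0654 to 0.122). The count of risen keratins was accordingly 1 without each of those 5 libraries, and 4 without KO4. The count of fallen ones was 8 without KO4 and 9 without WT2. Krt6b has a near copy, Krt6a, and how reads of the copies were shared out is not given, so its level is uncertain.

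**Figure D4:**
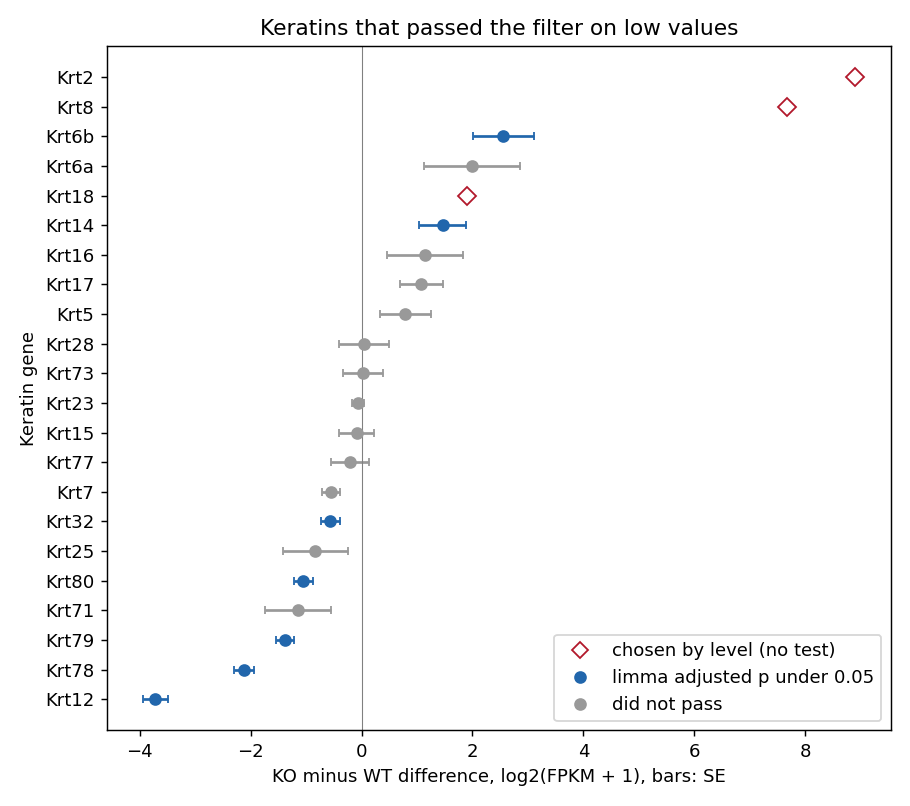
Knockout minus wild-type difference on the log2(FPKM + 1) scale for the 22 keratins that passed the filter, with SE bars for the 19 that were tested. Open diamonds are Krt2, Krt8 and Krt18, which were chosen by their level and carry no test; Krt2 (8.90) and Krt8 (7.67) lie apart from the rest, while Krt18 (1.89) lies below Krt6a.

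Other keratins known from simple epithelia and periderm were listed for 7 genes, of which 3 were tested. By limma 0 of the 3 passed, and 2 had an unadjusted p under 0.05. Krt7, a type II keratin of ducts, lay at 4.57 to 6.47 FPKM in knockouts and at 6.45 to 9.86 FPKM in wild types (limma adjusted p = 0.0510). Krt17, of periderm and stressed epidermis, stood at 548 ± 226 FPKM in knockouts and 264 ± 121 FPKM in wild types (SD, n = 4 each; limma adjusted p = 0.0983). Without KO4, Krt17 passed as higher and Krt7 as lower (limma adjusted p = 0.0295 and 0.0257), and without WT2 Krt7 passed as lower (0.0489). Krt17 also passed as higher within code 44 (0.0406) and within codes 11 and 14 (0.0362), with log2 differences of 1.17 and 0.98 against 1.08 in the full fit, and with the code as a block (0.00207). Krt7 passed as lower within codes 11 and 14 (0.0470). Krt13, which is below the filter in the full fit, was tested in 5 of the fits without 1 library. It passed as lower without KO4 (0.0393) and without WT2 (0.00399) and missed without KO1, KO2 or KO3 (0.0634 to 0.0765). Krt19 and Krt20, type I keratins that also pair with Krt8, lay at 0.547 to 1.02 and 0.0404 to 0.687 FPKM in knockouts. In wild types they lay at 0.188 to 2.57 and 0.147 to 0.487 FPKM. Krt4 and Krt13, the pair of the inner mucosal lining, were below 1 FPKM in all knockouts and uneven in the wild types. Across WT1 to WT4, Krt4 had 20.5, 0.104, 14.1 and 0.621 FPKM and Krt13 had 26.4, 0.979, 19.2 and 4.03 FPKM.

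Markers of other cell types in which these keratins are known were counted as well, and their part in the levels of Krt2 and Krt8 was not tested. Of 20 Merkel cell markers 19 were listed and 4 tested, and Tubb3 rose while Chga and Cpe fell (Cpe -3.32 ± 0.16, SE; limma adjusted p = 3.73e-06). Thus 3 of the 4 were called, against 15.7% of all genes. The marker lists were drawn up with earlier results of these data known, so such shares are descriptions only. The defining Merkel markers Atoh1, Sox2, Isl1 and Krt20 were at 0.0404 to 0.687 FPKM in knockouts and at 0.0830 to 0.791 FPKM in wild types. Summed over the list, markers came to 18.3 to 21.8 FPKM in knockouts and 112 to 164 FPKM in wild types. Cpe and Chga carry this difference, and the other 17 summed to 6.77 to 13.7 FPKM in knockouts and 5.72 to 11.04 FPKM in wild types. Of 14 markers of ducts and glands 8 were listed and 3 tested, and Scgb1a1 and Slc12a2 fell (-1.95 ± 0.30 and -1.12 ± 0.18), 66.7% of the 3. Their sum was 14.5 to 20.4 FPKM in knockouts and 32.9 to 44.7 FPKM in wild types. Among 8 genes of palm, sole or other distal sites, where Krt2 is known to be high, 6 were listed and 1 (Hoxc13) tested, which did not pass. Their sum was 1.69 to 1.94 FPKM in knockouts and 1.19 to 2.64 FPKM in wild types. Fibroblast markers summed to 22.9 to 192 FPKM in knockouts and 31.2 to 90.8 FPKM in wild types, and 0 of the 4 tested passed limma (adjusted p 0.478 to 0.810), with 0 at an unadjusted p under 0.05. The sum was lowest in KO4, where Krt8 and Krt2 were highest, and Dcn weighed most in this (6.11 FPKM in KO4, 66.1 FPKM in KO1). Fbn1 was also lowest in KO4. Col1a1, Col1a2, Col3a1, Lum and Pdgfra were instead lowest in KO1, where Krt8 and Krt2 were lowest among the knockouts.

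The neighbours on chromosome 15 were counted next. Of 39 annotated genes that start within 250 kb of Krt2, Krt8 or Krt18, 14 were tested, and 1 rose, 2 fell and 11 did not pass, 21.4% called against 15.7% of all genes. Krt6b was the gene that rose, though its groups overlapped, and without KO4 the count of risen neighbours was 2. The 2 that fell, Krt78 and Krt79, type II keratins, start 50.2 and 64.2 kb from Krt8, on the side of Krt2. They stood at 23.3 ± 4.39 and 49.7 ± 11.96 FPKM in knockouts, against 105 ± 20.2 and 129 ± 14.3 FPKM in wild types (SD, n = 4 each; limma adjusted p = 6.17e-05 and 5.90e-04). Krt77, a type II keratin gene between Krt2 and Krt8, had 71.0 ± 30.0 FPKM in knockouts and 80.2 ± 26.0 FPKM in wild types (limma adjusted p = 0.731). On the far side of Krt18, Eif4b, a translation factor, stood at 97.5 ± 9.55 FPKM in knockouts and 96.5 ± 12.3 FPKM in wild types (limma adjusted p = 0.940). The retinoic acid receptor Rarg, 253 kb from Krt8, stood at 50.8 ± 5.30 FPKM in knockouts and 45.2 ± 7.22 FPKM in wild types (limma adjusted p = 0.474).

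**Figure D5:**
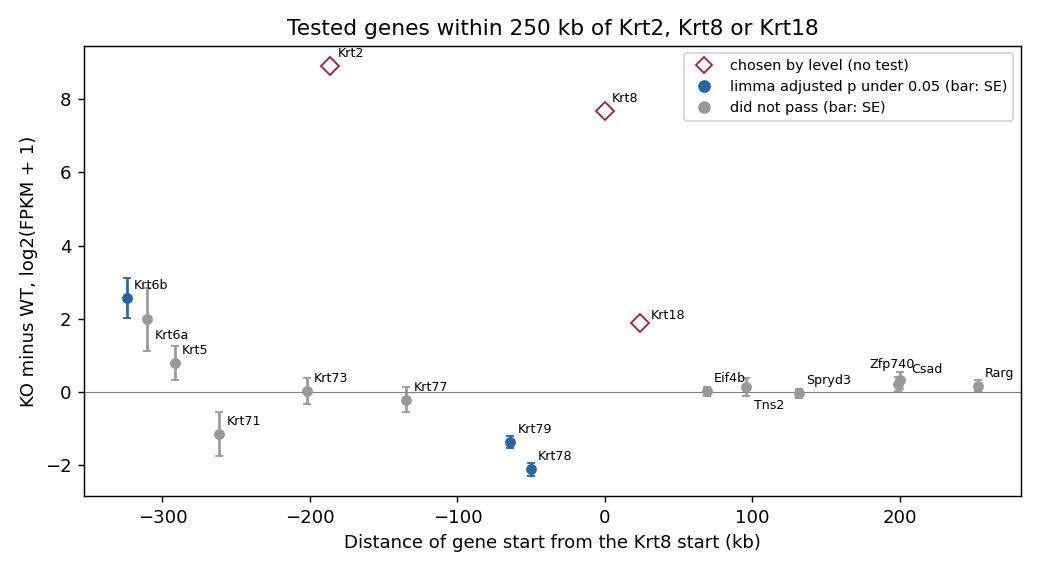
Knockout minus wild-type difference, log2(FPKM + 1), against the distance of each gene's start from that of Krt8 in kb, for tested genes within 250 kb of Krt2, Krt8 or Krt18; bars are SE. Krt78 (-2.12) and Krt79 (-1.38) lie between the high values of Krt2 (8.90) and Krt8 (7.67).

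Sequence shared with other genes was measured as windows of 75 bases, the read length, that recur exactly in an annotated transcript of another gene. Krt2 has 2539 such windows and Krt18 1363, and 0 of either recur elsewhere, Krt1 included. Of the 1884 windows of Krt8, 442 (23.5%) recur, 414 of them in the processed pseudogene Krt8-ps and the rest in Gm36026, an RNA of the opposite strand that overlaps the start of Krt8. Neither of these is analysed here, and whether the counting used strand is not given. Exact windows do not cover reads with mismatches, and their part in the levels was not tested.

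Proteins that bind or fold keratins were described by count. Of 28 tested linkers, binding proteins and chaperones, 4 rose, 0 fell and 24 did not pass, 14.3% called, near the 15.7% of all genes. Their median log2 change was 0.03, and at an unadjusted limma p under 0.05 there were 6 higher and 1 lower. The plakophilin Pkp2, a desmosomal plaque protein usual in simple epithelia, rose, with 1.13 ± 0.113 FPKM in knockouts and 0.167 ± 0.0867 FPKM in wild types (SD, n = 4 each; log2 0.87 ± 0.14, SE; limma adjusted p = 0.00302). Pkp2 passed the filter on low values only through the knockouts (1.05 to 1.29 FPKM), so it could only be called as higher. Plec, the linker plectin, rose as well, with 141 ± 15.4 FPKM in knockouts and 85.9 ± 9.71 FPKM in wild types (0.71 ± 0.12; limma adjusted p = 0.00440). Fam83h and the 14-3-3 protein Sfn also passed, but Fam83h missed without each of the 8 libraries in turn (limma adjusted p 0.0506 to 0.108) and Sfn missed without any except KO4 (0.0582 to 0.121). Dsp, the desmosomal protein that anchors keratins, stood at 911 ± 156 FPKM in knockouts and 1088 ± 139 FPKM in wild types (limma adjusted p = 0.329). The count of 4 was 2 without each library but KO4.

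Of 34 regulators known for simple keratin genes or epidermal fate, all tested, 4 rose, 0 fell and 30 did not pass, and the median log2 change was 0.27. The share called was 11.8%, against 15.7% of all genes. At an unadjusted limma p under 0.05 there were 10 higher and 3 lower. Elf3, an ETS factor of epithelia, rose, with 29.1 ± 3.60 FPKM in knockouts and 5.81 ± 1.62 FPKM in wild types (SD, n = 4 each; log2 2.17 ± 0.19, SE; limma adjusted p = 9.13e-05). Tfap2a, an AP-2 factor of keratinocytes, rose as well, with 39.9 ± 10.7 FPKM in knockouts and 20.2 ± 2.14 FPKM in wild types (0.91 ± 0.19; limma adjusted p = 0.0101), but missed with codes 11 and 14 alone (0.105). Elf5, an ETS factor, also passed (1.07 ± 0.30; limma adjusted p = 0.0375) but missed without 6 of the 8 libraries (0.0548 to 0.104). Klf4, a factor of barrier formation, and Trp63, the factor that maintains stratified epithelia, had log2 changes of -0.04 and 0.43 (limma adjusted p = 0.911 and 0.317). The count of risen regulators was 2 without KO1, KO2, KO3, WT1 or WT2, and 8 without KO4. The count of fallen regulators was 2 without KO4, 1 without WT4 and 0 otherwise.

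Of 21 tested genes of epithelial junctions and simple epithelium, 5 rose, 2 fell and 14 did not pass, and the median log2 change was 0.16. The share called was 33.3%, against 15.7% of all genes. This list and the regulators were drawn up with the rises of Cldn7 and Elf3 known, and without them 3 of 19 rose and 2 fell (26.3%). Cldn7, a claudin of tight junctions, rose, with 16.2 ± 3.96 FPKM in knockouts and 0.390 ± 0.232 FPKM in wild types (SD, n = 4 each; log2 3.62 ± 0.21, SE; limma adjusted p = 1.20e-05). Besides Elf3, the claudins Cldn3 and Cldn4 and Marveld3 passed (0.76, 1.05 and 0.70; limma adjusted p 0.0363 to 0.0487), but each missed without at least 6 of the 8 libraries. Cldn3 and Cldn7 were under 1 FPKM in every wild type and passed the filter only through the knockouts, so they could only be called as higher. Prss8, a channel-activating protease, fell (-1.04 ± 0.21; limma adjusted p = 0.00898) but missed within code 44 (0.0768). Spint2, a protease inhibitor, fell too (-0.36; limma adjusted p = 0.0398) and missed without 6 of the 8 libraries, while Epcam, a surface protein of simple epithelia, stood at 86.4 ± 34.9 FPKM in knockouts and 81.3 ± 16.6 FPKM in wild types (limma adjusted p = 0.976). The count of risen genes was 2 without KO2, KO3, WT2 or WT4, 3 without KO1, WT1 or WT3 and 4 without KO4. The count of fallen genes was 4 without KO4, 3 without WT3 and 1 without any one of the remaining libraries.

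Genes whose levels ran most like each keratin were ranked by Pearson's r over the 8 libraries on log2(FPKM + 1), among 10692 tested genes, leaving out pseudogenes, small RNAs and unnamed models. The r takes in the difference between genotypes and is a description. For Krt2 the closest were Slc15a3, a peptide transporter (r = 0.9993), Lrrc16a, an actin regulator (0.9987), Il1f6, an interleukin 36 cytokine (0.9982), Rasef, a Rab protein (0.9980), and Krt8 (0.9970). For Krt8 they were Il1f6 (0.9979), Rab11fip5, a Rab effector (0.9975), Krt2 (0.9970), Lrrc16a (0.9968) and the cytokine Tslp (0.9966). Krt18 had other neighbours: Clic1 (0.988), Hiat1 (0.986), Echdc3 (0.982), Prr7 (0.980) and M6pr (0.979), and its own r was 0.786 with Krt8 and 0.766 with Krt2. The r between Krt2 and Krt8 rests on the difference by which both were chosen. Rasef and Tslp were under 1 FPKM in every wild type and passed the filter only through the knockouts. The levels of the closest gene to Krt2 and to Krt18 are given as examples. Both were picked by r, so sharing the order of that keratin restates the ranking. Slc15a3 had 22.5, 33.9, 36.3 and 40.3 FPKM across KO1 to KO4, in the order of Krt2, against 1.32 to 1.70 FPKM in the wild types. Clic1, a chloride channel protein, had 111, 132, 93.2 and 80.3 FPKM across KO1 to KO4, in the order of Krt18, against 70.5 to 78.7 FPKM in the wild types.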

How the data were processed

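RNA from newborn epidermis of 4 Zfp750 knockout and 4 wild-type samples was sequenced as stranded, rRNA-depleted, paired-end libraries, per the labels' protocols. The FPKM values were made by the authors and deposited as 1 table, and the submitters' processing notes name mm10 as the build. Neither aligner nor quantifier, nor whether strand was used, is given in the sources used here. A missing value was taken as 0 (2029 genes). Every listed gene has a value in KO1, and whether genes without one there were left out of the list is not given. Krt1, Krt10, Flg2 and Rn45s, listed at 0 in some libraries and high in others, were not tested.

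Groups follow the genotype labels, and replicates are numbered in accession order. The titles of the libraries named KO1 and KO2 here both begin with KO1, with different codes, and whether they are linked is not given. Genes at or above 1 FPKM in at least 4 libraries (3 of 7 or 2 of 4 in smaller fits) were compared as log2(FPKM + 1) over the whole table by limma 3.58.1 (R 4.3.3, trend set in the variance prior). The pseudocount of 1 understates changes of low genes. The fit was tested on simulated data. Permutation tests used scipy 1.17.1. Coordinates are GENCODE M21 (GRCm38). Promoters are from RefSeq, and motif shares are over all listed promoters.

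The 3 keratins and the lists were chosen with earlier results of these data known. Named genes were the 3 keratins, Zfp750, other keratins, neighbours, up to 4 list members of smallest p with any list member as an example, and the 5 genes most like each keratin. One gene of the lists is not reported here by name.

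Alternatives were a pseudocount of 0.1, no filter, rescaling by median ratios, the title code as a block, either set of title codes alone, keratin shares with or without Krt1 and Krt10, and leaving out each library.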

Additional observations from a re-analysis of the deposited data

Results flagged for a closer look

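In groups of 4, a library was singled out where its gap to the next exceeded the 95% critical value of Dixon's test, which chance gives in about 1 group of 20. Of 56 groups examined, covering the keratins, their ratios and Zfp750, 2 met this. The ratio of Krt8 to Krt2 was 25.1 in WT3, while the remaining wild types lay between 5.47 and 7.34, with Krt2 at 0.0955 FPKM in WT3. Krt6b stood at 42.0 FPKM in WT3, while the remaining wild types lay between 6.88 and 11.8 FPKM.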

How the results depend on the processing

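Of 355 alternative values for 27 results, 75 moved by more than 1 SD between replicates, or for counts by more than 1.5 times, and 0 turned their direction. Values with a wide SD could shift far within it: the Krt8 to Krt18 ratio was 384 within code 44 and 53.0 within codes 11 and 14, and the Krt18 log2 difference was 1.05 and 2.73. A pseudocount of 0.1 gave log2 differences of 10.94 for Krt2, 8.30 for Krt8 and 3.04 for Krt18, a shift built into low wild-type values. Krt8 was 8.21 within title code 44 and 7.13 within codes 11 and 14. With no filter on low values, 1 other keratin rose and 8 fell, 1 simple epithelial keratin fell, 3 junction genes rose, 1 linker fell and 1 distal site marker fell. With rescaling, 1 simple epithelial keratin fell, 1 junction gene fell and 2 linkers rose. Within code 44, 575 genes fell in all, 1 simple epithelial keratin rose, 0 junction genes fell, 2 linkers rose and 1 regulator fell. Within codes 11 and 14, 1 simple epithelial keratin rose and 2 fell, 1 junction gene fell and 2 neighbours rose. The cause was not tested.

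With the title code as a replicate block, 4 other keratins, 1 simple epithelial keratin, 7 regulators and 2 neighbours rose, while 1 linker and 1 regulator fell. Over all genes this block gave 1034 higher and 1227 lower. Libraries of one code and opposite genotype had deviations correlated at -0.154 to 0.427 (5 of 6 pairs positive), and those of different codes at -0.435 to 0.202 (3 of 10 positive). Since 2 pairs of one code were under 0.1, the codes are not taken to pair libraries, though the values hint at it.

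Leaving out single libraries gave these ranges. Over all genes, 474 to 1083 rose and 649 to 1243 fell. Of other keratins 1 to 4 rose and 4 to 9 fell, and of simple epithelial ones 0 to 1 rose and 0 to 2 fell. Of junction genes 2 to 4 rose and 1 to 4 fell. Of linkers 2 to 3 rose and 0 fell, and of regulators 2 to 8 rose and 0 to 2 fell. Of Merkel markers 1 rose and 2 fell, of gland markers 0 rose and 2 to 3 fell, and of neighbours 1 to 2 rose and 2 to 3 fell. The log2 difference was 8.68 to 9.23 for Krt2, 7.51 to 7.81 for Krt8 and 1.45 to 2.25 for Krt18. The Krt8 to Krt18 ratio in knockouts was 126 to 277. The share of all keratin FPKM was 7.80% to 19.5% with Krt1 and Krt10 counted as listed, so this range depends on their zeros. FPKM carry no depth, so counting error is unknown, which matters most for wild-type levels under 1 FPKM.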
